A study of Homo sapiens with 2 samples.

Results

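Chromosome 8 was profiled along its short arm, 8p, and its long arm, 8q, as anti-Flag CUT & Tag peaks of TFK-1 cells. Its members were chosen by position, as all deposited peak calls on it, and the chromosome was taken up with earlier results of these data known. They were 360 of the 8043 peaks of the LV-HOXA5 library (4.48%) and 30 of the 635 peaks of the LV-HOXA5-NC library (4.72%). TFK-1 is an established line of extrahepatic cholangiocarcinoma, a cancer of the bile ducts. LV-HOXA5 cells carried a lentivirus for Flag-tagged HOXA5, and LV-HOXA5-NC cells carried the control vector; both were puromycin-selected stable lines, and the anti-Flag antibody was used in both. Each condition was 1 library, so no difference between conditions was tested. Sequencing depth was 15778555 fragments for LV-HOXA5 but 1948734 for the control, 12.4% as many, so the absence of a control peak could not be read as absence of signal.

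HOXA5 is a homeobox transcription factor that sets position along the body axis during development and is often silenced in tumours. In CUT & Tag, an antibody tethers a transposase that cuts and tags the DNA nearby, and loosely bound or freely accessible DNA is tagged as well. The caller compares the fragments stacked on a peak with the coverage around it. Extra copies of a chromosome arm raise the number of fragments from all of its sequence, in peaks and between them, whereas an active enhancer cluster or a repeated gene array raises it over a short stretch. Loss of 8p and gain of 8q are frequent in carcinomas, and the oncogene MYC lies on distal 8q. Copy number was not measured here.

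Pileup is the number of fragments covering the peak summit, and fold enrichment is the ratio of the pileup plus 1 to the local background plus 1. The local background was therefore recovered for each peak as (pileup + 1)/fold - 1, in fragments. It cannot fall below the genome-wide level of the library, which was 1.44 fragments for LV-HOXA5 and, at the lower depth, 0.204 for the control. All intervals are 95% intervals and cover counting error or the choice of peaks only. A peak was placed at a gene end if it lay within 1 kb of either end of a gene, since the strand of the genes was not used. The weakest chromosome 8 call of LV-HOXA5 had a -log10 q of 1.32, just inside the authors' q-value threshold of 0.05.

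Peaks were denser on 8p than on 8q for the length of the arms. The 45.0 Mb of 8p held 143 LV-HOXA5 peaks, or 3.17 per Mb (2.68 to 3.74), and the 100.0 Mb of 8q held 217, or 2.17 per Mb (1.89 to 2.48), against 2.72 per Mb over the other autosomes (2.65 to 2.78). Among 39 autosomal arms these values ranked 15 and 29 from the top. In all rankings of arms, chromosomes 13, 14, 15, 21 and 22 were each taken whole, as their q arm. Relative to genes the arms were alike, with 49.0 peaks per 100 protein-coding genes on 8p and 51.3 on 8q, against 40.3 over the other autosomes. Gene ends held 45 peaks of 8p (31.5%, 24.0 to 39.8) and 79 of 8q (36.4%, 30 to 43.2), and the other autosomes had 34.9%. Inside genes lay 66 peaks of 8p (46.2%, 37.8 to 54.7) and 75 of 8q (34.6%, 28.3 to 41.3), against 29.6% elsewhere. Intergenic peaks numbered 32 on 8p (22.4%, 15.8 to 30.1) and 63 on 8q (29%, 23.1 to 35.6), against 35.5% elsewhere.

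The local background was higher than on most arms, on 8p and on 8q alike. Its median was 2.99 fragments on 8p (2.68 to 3.31) and 2.76 on 8q (2.55 to 2.93), and 2.53 over the other autosomes (2.5 to 2.56). These medians ranked 8 and 11 of 39. Ahead of both stood 19q (4.15), 17p (3.85), 4p (3.53), 17q (3.53), 21q (3.10), 15q (3.08) and 16p (3.04). Of these, 21q and 15q here are whole chromosomes. At gene ends alone the median was 3.31 on 8p (2.71 to 4.10) and 2.63 on 8q (2.37 to 2.85), against 2.71 elsewhere, so 8q lay close to the other autosomes in this class. Few chromosome 8 peaks sat at the genome-wide level: 12 of 360 (3.33%), against 585 of 7411 on the other autosomes (7.89%).

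A strong peak adds its own fragments to the background around it, so peaks of a pileup of 17 or less, the median of the list, were also read alone. This limit was chosen after the data were seen. It also bounds the background that a called peak can have, which here reached at most 4.37 fragments on 8p and 4.12 on 8q, and a region with more fragments would have fewer peaks under it. Such peaks had a median background of 2.21 fragments on 8p (1.99 to 2.35, 68 peaks) and 2.26 on 8q (2.12 to 2.41, 119 peaks), against 1.99 on the other autosomes (1.98 to 2.02, 3978 peaks). The arms then ranked 8 and 7 of 39, behind 17q, 16p, 15q, 19q, 16q and 2p. Several of those arms are gene-rich, and 8q is not: it had 4.23 protein-coding genes per Mb, 8p had 6.48, and 17q had 14.1. Among the 19 arms below the median gene density, only 15q (2.41) and 2p (2.28) exceeded 8q in low-pileup background. Here 15q is all of chromosome 15, and its 6.05 genes per Mb lie just under the median of 6.13. Over all peaks, 8q (2.76) ranked 5 of the 19, behind 4p (3.53), 21q (3.10), 15q (3.08) and 2p (2.79). The part of copy number in these values was not tested.

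**Figure D1:**
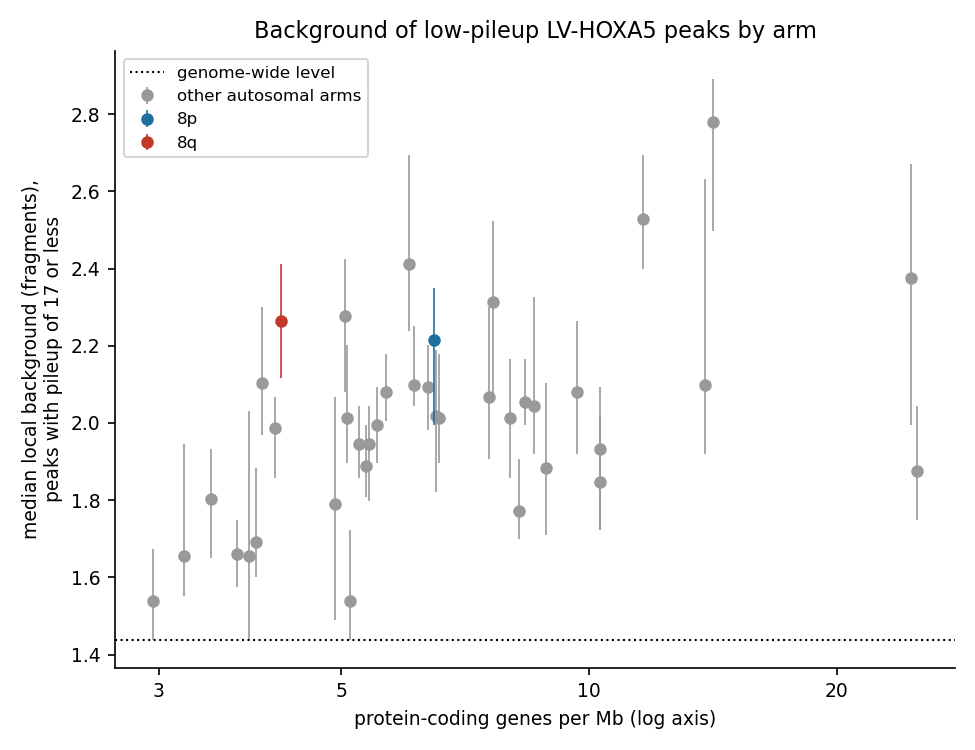
Median local background, in fragments, of LV-HOXA5 peaks with a pileup of 17 or less, against protein-coding genes per Mb on a log axis, for 39 autosomal arms. Chromosomes 13, 14, 15, 21 and 22 are each shown whole, as 1 arm. Bars are 95% order-statistic intervals, and the dotted line is the genome-wide level of 1.44. The 8q point (2.26) lies above most arms of similar gene density, and 8p (2.21) lies nearer to its neighbours.

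**Figure D2:**
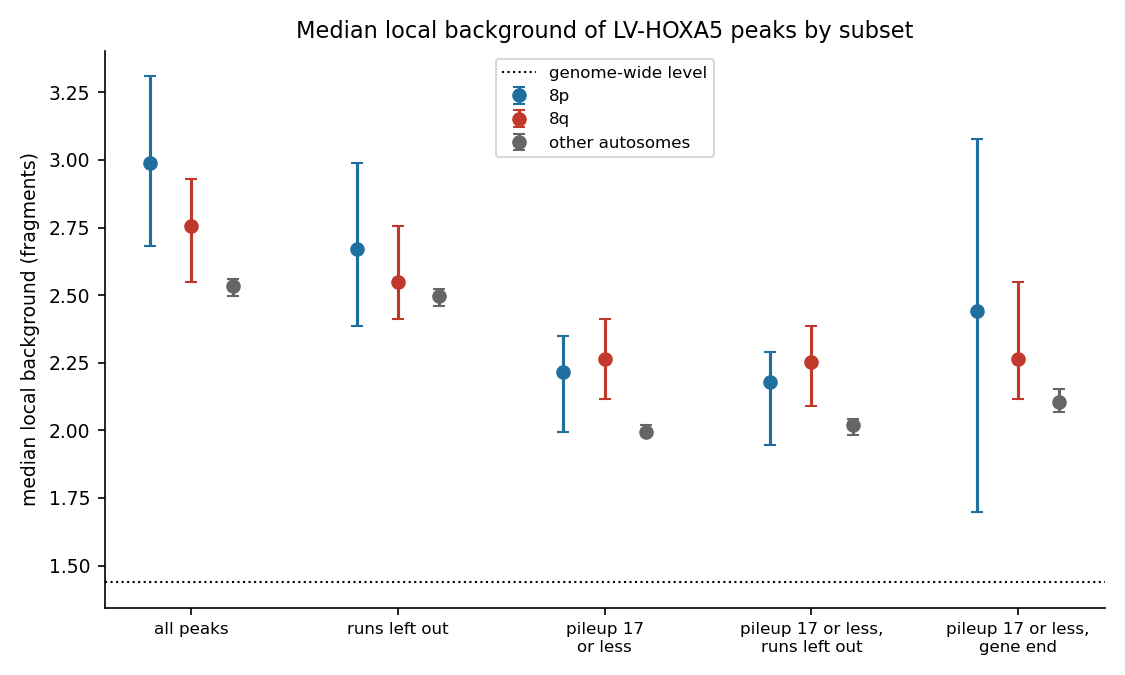
Median local background, in fragments, of LV-HOXA5 peaks on 8p, on 8q and on the other autosomes, for all peaks and for 4 subsets, with 95% order-statistic intervals. Values are lower in each group once low-pileup peaks are read alone. The 8p and 8q medians are above that of the other autosomes in every subset shown. Intervals overlap for most 8p subsets and, on 8q, for all peaks, peaks outside runs and low-pileup gene ends. Gene-end peaks of all pileups are not shown: they had 3.31 on 8p and 2.63 on 8q, against 2.71 on the other autosomes.

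Along the chromosome the background was uneven within each arm. Of the 26 bins of 5 Mb with at least 5 LV-HOXA5 peaks, 16 had a median above the autosomal 2.53 (61.5%, 40.6 to 79.8), and the interval includes the 41.7% of the 439 such bins elsewhere. With bins shifted by 2.5 Mb the share was 50%, against 42.2% elsewhere, and with bins of 10 Mb it was 53.3%, against 38.2%. In 5 bins the median passed the 90th percentile of autosomal bins: 40 to 45 Mb (4.15), 60 to 65 Mb (4.74), 85 to 90 Mb (9.51), 125 to 130 Mb (3.88) and 140 to 145 Mb (3.78). Between them lay bins of low background, such as 55 to 60 Mb (1.60) and 115 to 120 Mb (1.82), and 110 to 115 Mb held no LV-HOXA5 peak. The 60 to 65 Mb bin held only 6 peaks, 5 of them within 64.8 kb, so its median describes a short stretch.

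Over all peaks of 8q, the median background was 2.04 fragments within 20 Mb of the arm boundary (1.65 to 2.52, 25 peaks). Next came 2.35 from 20 to 40 Mb, 2.93 from 40 to 60 Mb and 2.26 from 60 to 80 Mb (2.12 to 2.67). From 80 to 100 Mb it was 3.68 (2.93 to 4.09, 71 peaks). With runs of neighbouring peaks left out, the first and last segments had 1.85 (1.60 to 2.15) and 3.37 (2.77 to 3.94). The segments between them had 2.35, 2.56 and 2.26, in order. In either reading the median was highest in the last segment but did not rise steadily along the arm. Among low-pileup peaks, whose range the limit narrows, values differed less. Within 20 Mb their median background was 1.82 fragments (1.51 to 2.15, 19 peaks). It was 2.13 from 20 to 40 Mb, 2.36 from 40 to 60 Mb and 2.25 from 60 to 80 Mb. In the last segment, 80 to 100 Mb from the boundary, it was 2.5 (2.34 to 2.93, 29 peaks). The median pileup of these peaks went from 11 in the first segment to 15 in the last, so peak height moved with the background. On 8p the same measure was 2.21 within 20 Mb of the boundary, 2.25 from 20 to 40 Mb and 1.99 over the 3 such peaks beyond 40 Mb.

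**Figure D3:**
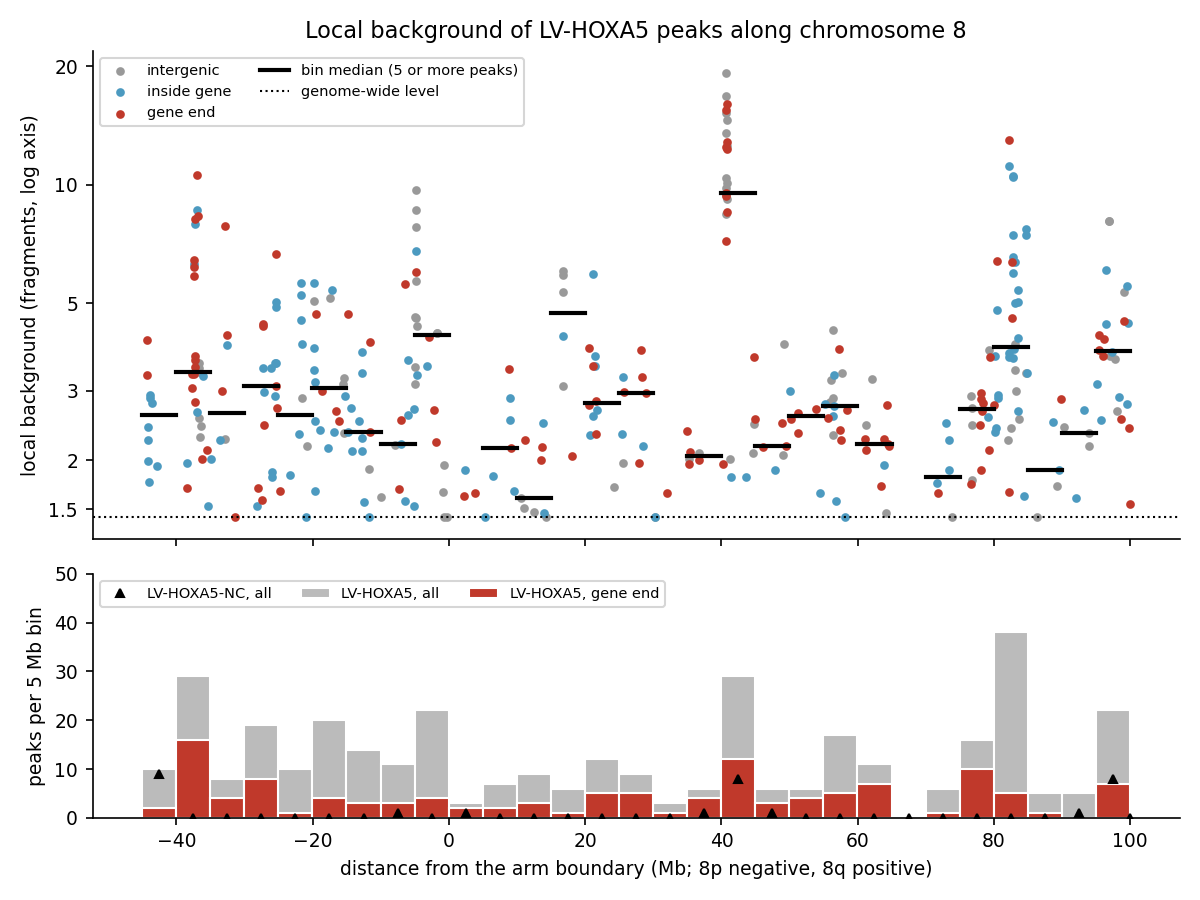
Local background of each LV-HOXA5 peak of chromosome 8 in fragments, on a log axis, and peaks per 5 Mb bin, against distance from the arm boundary in Mb. Colours give the peak class, black lines bin medians, the dotted line the genome-wide level of 1.44, and triangles LV-HOXA5-NC peaks. High values stand in narrow columns, the tallest reaching 19.2 fragments.

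Many of the highest backgrounds came from short stretches. Runs of at least 5 peaks with gaps of at most 50 kb, a rule set after the data were seen, numbered 9 on chromosome 8 and held 63 of its 360 peaks (17.5%), against 18.8% on the other autosomes. Of the 69 peaks with a background over 5 fragments, 41 were in runs. Background in the runs had a median of 6.29 fragments, against 2.82 in runs elsewhere, but the runs were of unlike kinds: 36.5% of their peaks were at gene ends on chromosome 8 and 11.9% elsewhere. Outside runs it was 2.58 on chromosome 8 and 2.5 elsewhere. The intergenic share outside runs was 22.9% on 8p (15.7 to 31.5) and 25.7% on 8q (19.5 to 32.8), and both intervals include the 25.9% elsewhere. The share inside genes was 49.2% on 8p (39.8 to 58.5) and 36.3% on 8q (29.3 to 43.8), against 33.9%. By arm, peaks outside runs had median backgrounds of 2.67 on 8p (2.39 to 2.99) and 2.55 on 8q (2.41 to 2.76). They still include 12 peaks of the repeated families described next, the highest background of the chromosome among them. Without those, the medians were 2.54 on 8p (2.35 to 2.88) and 2.55 on 8q (2.41 to 2.68).

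The tallest column was the REXO1L array of 8q21.2, a tandem family of exonuclease-like genes and pseudogenes in near-identical copies. Over 185 kb, chr8:85642530-85827839, it held 21 LV-HOXA5 peaks with backgrounds from 7.19 to 19.2 fragments, median 12.3, which was 8.55 times the genome-wide level. Pileups there were high, 27 to 71, but folds were low, with a median of 3.09. The control library had 7 peaks in the array at a median background of 4.05 fragments, or 19.8 times its own genome-wide level. Without the array, the 8 remaining peaks of the 85 to 90 Mb bin had a median background of 2.05. How reads were shared among the copies was not tested.

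A second repeated family lay on 8p23.1, where the FAM90A genes, primate-specific and of little-known function, form clusters beside the beta-defensin genes. Their largest cluster, chr8:7256904-8030646, held 15 LV-HOXA5 peaks, 12 at gene ends, with backgrounds from 2.81 to 10.6 fragments, median 5.86. No control peak lay there. Another 4 peaks lay at or near FAM86B genes, which are related to protein methyltransferases, 3 of them at gene ends. Among them were chr8:12194184-12194917 at FAM86B1 (pileup 91, fold 10.4) and chr8:8227860-8228486 at the pseudogene FAM86B3P (pileup 77, fold 8.38). The bin from 5 to 10 Mb had the most gene-end peaks of chromosome 8, 16, and 12 of these were in the FAM90A cluster. The remaining ones were at FAM86B3P, MCPH1, MFHAS1, which encodes a leucine-rich-repeat protein, and TNKS, which encodes the poly-ADP-ribosylating enzyme tankyrase.

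Leaving out the repeated families lowered 8p more than 8q at gene ends. The median gene-end background became 2.69 on 8p (30 peaks) and 2.52 on 8q (70 peaks). Peak density over the same arm lengths became 2.75 per Mb on 8p and 1.96 on 8q, so 8p stayed the denser arm. Families of this kind were left out on chromosome 8 only, so these values are not matched to those of the other autosomes.

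Other runs lay inside or beside single-copy genes. On 8p11.21, 7 peaks from chr8:40156108-40214938 began at TCIM, a small regulator of Wnt signalling, and had backgrounds from 4.59 to 9.68 fragments. Of these, 5 were intergenic, and the strongest, chr8:40174578-40175498, had a pileup of 64 and a fold of 7.40. On 8p21.3, 7 peaks over CSGALNACT1, which starts chondroitin sulphate chains, reached a pileup of 55 and a fold of 7.31 at the end of its antisense RNA. On 8q12.3, the 5 peaks of a run lay 6989 to 71554 bp from ASPH, an aspartyl hydroxylase gene, with none at a gene end, and included chr8:61766931-61767628 (pileup 64, fold 9.43). Another run of 5 peaks began 55808 bp from HAS2, a hyaluronan synthase gene, and 4 of them were intergenic. Its median background was only 2.46, with folds up to 8.26.

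Around MYC, within 1 Mb on either side, lay 26 LV-HOXA5 peaks with backgrounds from 1.66 to 13 fragments, median 4.34. None overlapped a control peak, as was the case for all but 5.00% of the peaks of the chromosome. The highest was at the colon cancer-associated transcript CCAT1, chr8:127218833-127219636 (pileup 96), and a peak covering the higher-coordinate end of MYC had a pileup of 30 and a fold of 4.20.

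The strongest peaks by fold enrichment were scattered over both arms. First was chr8:144125628-144126053, intergenic near WDR97 on 8q24.3 (pileup 93, fold 14.8), which was also called in the control. It was followed by chr8:43237706-43238094 (fold 11), 34851 bp from HGSNAT, a lysosomal acetyltransferase gene, and by the FAM86B1 peak. Next came chr8:659177-659797 in ERICH1 (fold 9.93) and chr8:144767555-144768368 near ZNF34 (fold 9.88), both also called in the control. After these came the strongest peak of the run beside ASPH (fold 9.43). It was followed by chr8:1206323-1206667 (fold 9.02) and by a peak at the end of THAP1, a zinc-finger regulator gene mutated in dystonia (fold 8.69). The last of the leading 10 were chr8:40349949-40350631 (fold 8.38) and the FAM86B3P peak. The 5 lowest folds, 2.13 to 2.53, belonged to 4 peaks of the REXO1L array and 1 of the TCIM run, all with backgrounds of at least 9.68 fragments.

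Several strong gene-end peaks stood on backgrounds near the autosomal median of 2.53. NUDCD1 and ENY2, the latter encoding a subunit of chromatin-modifying and RNA export complexes, shared chr8:109333926-109334688 (fold 7.99, background 2.76). INTS9, of the Integrator complex that processes small nuclear RNAs, and HMBOX1 shared chr8:28889920-28890432 (fold 7.41, background 2.51). OTUD6B, a deubiquitinase gene, lay with its antisense RNA at a peak of fold 7.61 and background 2.15. These were named after their values were seen. Of the 124 gene-end peaks, 93 were at protein-coding genes (75%, against 74.9% elsewhere). Ends of 2 or more genes were met by 8 of 45 on 8p (17.8%, 8.0 to 32.1) and by 31 of 79 on 8q (39.2%, 28.4 to 50.9), against 42.1% elsewhere.

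Protein-coding genes with a gene-end peak made up 13.2% of all 19126 autosomal ones and 15.2% of the 715 on chromosome 8 (109 genes, 12.7 to 18.1). On 8p they were 37 of 292 (12.7%, 9.08 to 17) and on 8q 72 of 423 (17%, 13.6 to 20.9). In the control library the autosomal share was 0.0732%, and 2 chromosome 8 genes had such a peak. Without the repeated families and uncharacterised loci the share was 9.02% on 8p (5.8 to 13.2), 16.6% on 8q (13.1 to 20.6) and 13.7% over the chromosome, against 13.3% on the other autosomes treated likewise.

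Of 35 listed tumour suppressor and growth genes of 8p, 4 had a gene-end peak (11.4%, 3.20 to 26.7), against 12.7% of all protein-coding genes of 8p. They were MTUS1, a microtubule-associated growth suppressor, at fold 2.98; PCM1, a centriolar satellite scaffold, at fold 5.49; MCPH1, which restrains chromosome condensation, at fold 5.19; and PLPBP, a vitamin B6-binding protein, at fold 4.84. Peaks lay inside 4 more of the 35, as they did in 26 of all 292 protein-coding genes of 8p (8.90%). One was NRG1, a growth factor of the ERBB receptors, with 6 peaks over 1.13 Mb. The nearest peak to the kinase receptor gene FGFR1 was 58300 bp away.

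Of 34 listed 8q genes that are often gained in tumours, 13 had a gene-end peak (38.2%, 22.2 to 56.4). Over the 33 protein-coding ones this was 39.4% (22.9 to 57.9), against 17% of all protein-coding genes of 8q. The highest folds were 6.81 at TPD52, a vesicle-trafficking protein gene, 6.42 at EIF3H, a translation initiation subunit, 5.07 at NBN, a sensor of DNA breaks, and 4.97 at RRM2B, a ribonucleotide reductase subunit. Backgrounds at these 4 peaks were 2.37, 1.65, 2.55 and 3.83 fragments. Towards the end of the arm, PTK2, the focal adhesion kinase, had 3.68 and MAF1, a repressor of RNA polymerase III, 4.52. The lists were drawn up with earlier results known, so their shares describe these genes only.

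Of 16 listed cell cycle, replication and repair genes on the chromosome, 4 had a gene-end peak (25%, 7.27 to 52.4), an interval that includes the 15.2% of all protein-coding genes of chromosome 8. They were NBN, RRM2B, the telomere-binding TERF1 (fold 5.05) and the mitotic phosphatase regulator CDCA2 (fold 6.5). Among 20 developmental transcription factor genes there were 2 (10%, 1.23 to 31.7), whose interval includes it too. These were OSR2 (fold 4.33) and PLAG1 (fold 4.00), both encoding zinc-finger proteins. GATA4, SOX7 and SOX17, factors of endoderm or heart development, had no peak at an end or inside.

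Most control peaks lay in 3 places, which were marked out after their positions were seen. Of the 30 (20.2 to 42.8), 9 lay in the first 5 Mb of 8p, from 69882 to 1850413, mostly in DLGAP2, a synaptic scaffold gene, and in ERICH1. Another 7 lay in the REXO1L array and 9 beyond 135 Mb on 8q, some of them in AGO2, an RNA interference nuclease gene, and in ARHGAP39. The same places held 59 of the 360 LV-HOXA5 peaks (16.4%), but since they were drawn around the control peaks, the shares of the libraries were not compared. Of the other 5, 1 adjoined the array and 4 were isolated, with pileups of 4 to 6.

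LV-HOXA5 peaks overlapped a control peak in 18 of 360 cases (5.00%, 2.99 to 7.79), against 5.17% on the other autosomes, and 19 of the 30 control peaks (63.3%) were overlapped in turn. By arm, 4 of 143 peaks on 8p and 14 of 217 on 8q were shared. Within the array the pileups were 38 to 71 in LV-HOXA5 and 19 to 29 in the control, 3.31 to 4.26 times what the library depths alone would give. At the end of 8p, chr8:848496-848782 in DLGAP2 was higher in the shallower library, 24 against 14. At the end of 8q the WDR97 peak had 93 and 19 fragments, 1.65 times the depth ratio. These were the extremes: the median was 3.97 times over the 4 pairs at the end of 8p and 3.86 times over the 7 at the end of 8q. A control peak must pass a threshold to be listed, so ratios above depth are favoured by the calling itself.

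**Figure D4:**
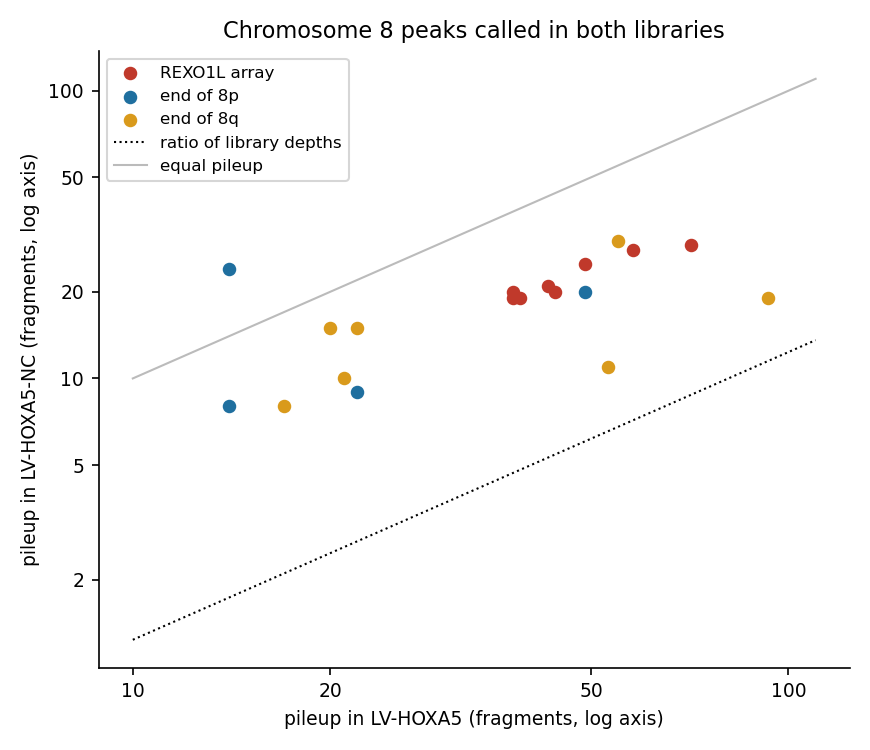
Pileup in LV-HOXA5-NC against pileup in LV-HOXA5, in fragments on log axes, for the 19 pairs of overlapping chromosome 8 peaks. The dotted line is the ratio of library depths (12.4%) and the grey line equal pileup. All pairs lie above the depth ratio, and 1 pair, from the end of 8p, lies above equality.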

How the data were processed

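The submitters' processing notes name fastp, Bowtie2, deepTools, MACS2 and ChIPseeker and the build GRCh38, without further settings, and the handling of reads that match several copies is not given in the sources used here. Per the file headers, MACS2 2.2.7.1 was run on each library alone, without an input, at a q-value threshold of 0.05 and a background window of 10000 bp. Each deposited table gave pileup (a coverage signal), fold enrichment (a ratio) and the -log10 p-value and -log10 q-value of each peak. From the pileup and the recovered background a Poisson tail returned the deposited -log10 p-value within 0.01 for 360 of 360 chromosome 8 peaks when counts above the pileup were taken, and for 0 when the pileup itself was included. Genes came from RefSeq (GRCh38.p14). The arm boundary was the middle of the widest gene-free stretch, 43.5 to 46.5 Mb. Poisson and Clopper-Pearson intervals were exact, and medians had order-statistic intervals. Named genes followed hand-written lists, the 10 highest and 5 lowest folds, the bin richest in gene-end peaks and all control peaks; those of runs, repeated families, peak-free stretches, the surroundings of MYC and strong gene-end peaks on ordinary backgrounds were chosen after their values were seen. Members and lists were chosen with earlier results of these data known. Functions were tested on simulated data with Python, NumPy, SciPy and pandas. The values of 1 listed gene are not reported here.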

Additional observations from a re-analysis of the deposited data

How the results depend on the processing

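Of 69 values under alternative settings, 57 stayed within 1.5 times the reported count or density, or within the interval of the reported share or median. The 1.5-fold limit is wide. At a q-value of 0.001 or less the 8p density was 2.66 per Mb, below its interval of 2.68 to 3.74, and was still counted as within. Taking gene ends within 3 kb raised the gene-end share to 44.8% on 8p and 46.5% on 8q, and protein-coding genes only lowered it to 26.7% on 8q. With bins read from gene-end peaks only, 80.0% of 10 bins (44.4 to 97.5) exceeded the autosomal median of such peaks, against 47.3% elsewhere. The other settings that moved a value were chosen after seeing the data. For median background, a pileup limit gave 2.21 on 8p and 2.26 on 8q, and leaving out runs gave 2.67 on 8p. Leaving out runs and repeated families gave 2.54 on 8p and 2.55 on 8q. To the recorded digits this 8q value equals the lower limit of its interval, so its count as moved rests on a tie. Leaving out runs alone gave the same 8q value, which was counted as within. Taking off the most that a peak's own fragments could add gave 1.84 on 8p (1.75 to 1.95) and 2.02 on 8q (1.85 to 2.10). The other autosomes then had 1.70 (1.68 to 1.73). Without repeated families the 8p gene-end median was 2.69. A first rule for these families, which ran from the first to the last FAM90A gene over 5.16 Mb and so took in other sequence, was replaced. It had given a gene-end median of 2.71 on 8p. Its 8p density of 2.42 peaks per Mb was also below the reported interval and counted as within. Causes were not tested. Each condition was 1 library, the control was shallow, and the background is known only at called peaks, so copy number and local chromatin cannot be told apart.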

Other observations

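The median distance between neighbouring LV-HOXA5 peaks of chromosome 8 was 124 kb, a value lowered by the peaks that stand in runs. Long stretches held no LV-HOXA5 peak, and they are given for chromosome 8 only, so whether they are unusual was not tested. The widest, 7.06 Mb on 8q from 109645081 to 116703268, held 3 complete protein-coding genes and no control peak, and spans CSMD3, a very large gene of a complement-related membrane protein, and TRPS1, a GATA-type repressor gene. Its relative CSMD1 lay in the next, 4.44 Mb of 8p23 from 2127702 to 6567051. After these came 3.44 Mb of 8q from 81783862 to 85220166, which held 1 control peak. A stretch of 3.26 Mb on 8p22 covered the sarcoglycan gene SGCZ and TUSC3, an oligosaccharyltransferase subunit gene.

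Low gene density did not go with every such stretch. From 96262946 to 98944307 on 8q, 2.68 Mb without a peak held 14 complete protein-coding genes, or 5.22 per Mb, among them MTDH, LAPTM4B and the ribosomal protein gene RPL30. From 118897512 to 121697247, 2.80 Mb held 13, among them TNFRSF11B, the decoy receptor of bone resorption, DSCC1, of sister chromatid cohesion, and DEPTOR, an inhibitor of mTOR.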
